A study of Mus musculus with 4 samples.

Results

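Trim30a, Trim30b, Trim30c and Trim30d are 4 neighbouring copies of a gene for a tripartite motif (TRIM) protein on mouse chromosome 7, and were taken as the rows of the deposited gene table that carry these names, 4 of 34745 genes. They were selected by their lower counts with dimethyl itaconate (DI), a cell-permeable ester of the macrophage metabolite itaconate, so their differences between the groups, and whether edgeR calls them, are given as a description and support nothing. RNA was sequenced from bone marrow macrophages (BMMs), which are grown from marrow with M-CSF, of wild-type 8-week-old male C57BL/6 mice. After 12 h without serum, all cells received complete medium with RANKL, the cytokine that turns macrophages into osteoclasts, at 100 ng/mL, together with DI or vehicle (DMSO) for 24 h. Each group, named RANKL+DI and RANKL+Veh below, had 2 libraries, and no library was made without RANKL. The labels give the dose of DI in mM, whereas the culture methods of the study use μM, with the same number, 20. The labels do not say whether the 2 libraries of a group came from separate cultures or animals, so that every p-value below measures only the spread between these libraries.

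TRIM proteins carry a RING domain, B-box and coiled coil, and many are E3 ubiquitin ligases that tag other proteins in innate immune signalling. Trim30a, the best studied of the 4, is an interferon-inducible gene of mouse macrophages whose protein is known to lower NF-κB signalling by promoting the loss of TAB2 and TAB3, to restrain the NLRP3 inflammasome and to act on the DNA-sensing adaptor STING. NF-κB is also the pathway through which RANKL and its receptor drive osteoclast formation. The other copies belong to the same rodent expansion next to Trim5, Trim12 and Trim34, and much less is known of them.

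On GRCm38, the build named in the submitters' processing notes, the 4 genes lie on the minus strand of chromosome 7 within 152468 bases. From low to high coordinates they are Trim30b (ENSMUSG00000052749, 104355382 to 104369884), Trim30c (ENSMUSG00000078616, 104382065 to 104390586), Trim30a (ENSMUSG00000030921, 104409025 to 104465193) and Trim30d (ENSMUSG00000057596, 104470014 to 104507849). The gaps between them were 12180, 18438 and 4820 bases in that order. In the GENCODE M21 annotation, the exons of the 4 genes shared 0 bases with those of any other gene. Trim30a, Trim30c and Trim30d each have 7 coding exons with 1488, 1539 and 1491 coding bases, whereas the longest coding sequence of Trim30b has 2 coding exons and 609 bases.

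The copies resemble each other closely enough that the origin of a read matters. The first 90 coding bases of each gene show this, starting at the initiation codon and running into the RING domain part, with capitals for the bases that differ from Trim30a in the alignment:

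Trim30a: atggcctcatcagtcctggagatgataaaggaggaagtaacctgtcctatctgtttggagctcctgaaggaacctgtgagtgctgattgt
Trim30b: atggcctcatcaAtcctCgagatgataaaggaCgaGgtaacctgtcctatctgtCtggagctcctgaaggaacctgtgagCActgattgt
Trim30c: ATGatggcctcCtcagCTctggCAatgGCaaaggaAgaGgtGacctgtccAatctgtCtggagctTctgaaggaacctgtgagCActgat
Trim30d: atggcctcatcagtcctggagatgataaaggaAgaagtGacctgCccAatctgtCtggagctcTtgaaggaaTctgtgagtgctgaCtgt

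Of these 90 bases, 83 were the same as in Trim30a for Trim30b, 72 for Trim30c and 82 for Trim30d. Over the coding sequence, Trim30a and Trim30d were identical at 90.2% of 1488 aligned bases, with an unbroken identical stretch of 275 bases. Trim30c stood further away, with 83.3% identity to Trim30a over 1487 bases, 84.0% to Trim30d over 1490 bases and a longest stretch shared with Trim30a of 42 bases. Trim30b was identical to Trim30a at 85.3% of 580 aligned bases, to Trim30d at 85.5% of 579 and to Trim30c at 82.7% of 578. Across the M21 transcripts, 4.41% of the 3992 windows of 100 bases in Trim30a also occurred in another of the 4 genes, and all 176 of them were in Trim30d. The same held for 4.57% of the windows of Trim30d, and for 0 windows of Trim30b and Trim30c. At 50 bases, Trim30a shared 5.98% of its windows and Trim30c 0.660%, in each case with Trim30d, and Trim30d shared 7.49% of its windows with the other copies. Trim30b shared 0.406% with Trim30d, and 1.48% with any gene, of which the most were in Gm15133 (67 of 113 windows). A read wholly within such a stretch cannot be placed in 1 copy by its own bases, although its mate may lie outside the stretch. How the counting program treated such reads is not given in the sources used here. The counts of Trim30a and Trim30d are therefore uncertain in their shared part.

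The deposited gene models also differ in what they cover. The model of Trim30c spans its coding part alone, with a length of 1542 bases and only 3 bases after the last coding codon, which are the stop codon. RefSeq places another 2948 bases at its 3′ end and 10266 bases of locus at its 5′ end, so that reads from these parts were not counted for Trim30c. The deposited lengths of Trim30a, Trim30b and Trim30d were 5225, 10159 and 5213 bases. Over the same spans, the M21 exons of these genes cover 4111, 7527 and 3758 bases, so levels per kb depend on the length used. RefSeq has Trim30b only between 104358646 and 104355398, a small part of the deposited model, in which M21 lists 6 transcripts, 3 of them coding.

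The libraries held between 16085692 and 19403480 counts, so that 3 counts, the upper limit that a count of 0 allows, are at most 0.180 CPM. CPM are counts divided by the library size, which was corrected by TMM for differences in composition. Of 12590 genes tested with edgeR, 1868 (14.8%) passed an adjusted p of 0.05, of which 899 were higher and 969 lower in RANKL+DI. Without the first or the second vehicle library there were 1120 and 1087 calls, and with scaling by library size only there were 548 higher and 1932 lower. Macrophage markers were present, with 9 rows for 8 genes (Itgam has 2 gene identifiers) summing to between 22438 and 29434 CPM, most of it Lyz2. This sum was 28639 and 29434 CPM in RANKL+DI and 23282 and 22438 CPM in RANKL+Veh, and as it is mostly Lyz2 it does not describe the markers as a set. Of the 9 rows, 5 passed the test as higher and 2 as lower, against 14.8% of all tested genes in either direction. Markers of osteoclasts summed to 610 and 600 CPM in RANKL+DI and to 630 and 610 CPM in RANKL+Veh. This sum, in which Atp6v0d2 was the highest gene, does not describe the osteoclast markers as a set either. Of 7 such markers 6 were tested, with 1 called higher and 4 lower, against 14.8% of all tested genes in either direction. The calcitonin receptor gene Calcr was at 0 in every library. Summed markers of B cells, T and NK cells and dendritic cells lay between 0.117 and 0.816 CPM, with Cd3e, Cd3g, Nkg7 and Siglech among the genes at 0. Neutrophil markers summed to between 7.03 and 9.25 CPM with Ly6g at 0, and stromal markers to between 39.0 and 45.6 CPM with Epcam at 0. Few genes of these 5 lists could be tested, with 0 of 4 for B cells, 1 of 5 for T and NK cells and 0 of 5 for dendritic cells. For neutrophils 3 of 5 were tested and for stromal cells 4 of 5. None of the tested genes passed, and the part of marker levels in the Trim30 values was not tested. In bulk RNA, fewer cells of a type and less RNA per cell cannot be told apart.

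All 4 Trim30 genes had counts in every library, and all 4 passed the filter on low counts. In each of them both RANKL+DI libraries were lower than both RANKL+Veh libraries, a pattern found in 29.6% of all tested genes. With edgeR, 3 of the 4 passed an adjusted p of 0.05 as lower, against 7.7% of all tested genes. Nothing is read from either count, because the genes were chosen on this contrast. The median log2 fold change of the 4 genes was -0.83, and that of all tested genes was 0.0012.

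Trim30a had by far the most counts. It held 1564 and 1722 counts in RANKL+DI and 2369 and 2298 counts in RANKL+Veh, or 91.1 and 91.8 CPM against 127 and 138 CPM. The 2 DI libraries were nearly the same, and the vehicle libraries lay above them and further apart. The mean was 91.5 ± 0.508 CPM (SD, n = 2) with DI and 133 ± 7.63 CPM (SD, n = 2) with vehicle. The log2 fold change of Trim30a was -0.54 with a standard error (SE) of 0.056, which leaves 69.0% of the vehicle level. A difference of this size was not rare, since 814 of the tested genes (6.47%) had a lower log2 fold change.

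Trim30d, the copy closest to Trim30a in sequence, showed nearly the same ratio at a lower level. It held 309 and 334 counts in RANKL+DI and 467 and 462 counts in RANKL+Veh, or 18.0 and 17.8 CPM against 25.1 and 27.7 CPM. The groups did not overlap and the DI libraries again lay close together. Mean levels were 17.9 ± 0.134 CPM (SD, n = 2) with DI and 26.4 ± 1.89 CPM (SD, n = 2) with vehicle. The log2 fold change of Trim30d was -0.56 (SE 0.091), so that 67.9% of the vehicle level was left. Without the second vehicle library it was -0.48 and no longer passed the test.

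Trim30c had the lowest fold change of the 4 genes and few counts. It held 5 counts in each RANKL+DI library and 27 and 22 counts in RANKL+Veh, or 0.291 and 0.267 CPM against 1.45 and 1.32 CPM. Summed over the 2 libraries of a group, this is 10 counts with DI (exact 95% Poisson interval 4.80 to 18.4) and 49 with vehicle (36.3 to 64.8), and the intervals cover counting error only. Mean levels of Trim30c were 0.279 ± 0.0174 CPM (SD, n = 2) with DI and 1.39 ± 0.0910 CPM (SD, n = 2) with vehicle. The log2 fold change was -2.29 (SE 0.38), which leaves 20.5% of the vehicle level and was undercut by 22 of the tested genes (0.175%). Trim30c reached the minimum of the filter, 0.559 CPM, only in the 2 vehicle libraries, so a gene with this record had to differ in order to be tested. Its call was also lost when any of the 4 libraries was left out, although the log2 fold change stayed between -2.35 and -2.22.

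Trim30b was the least certain of the 4 genes. It held 15 and 12 counts in RANKL+DI and 22 and 35 counts in RANKL+Veh, or 0.874 and 0.640 CPM against 1.18 and 2.10 CPM. The groups did not overlap, but the lowest vehicle library lay close to the highest DI library, and the vehicle libraries had a coefficient of variation of 39.6%. The exact 95% Poisson intervals of the summed counts were 17.8 to 39.3 around 27 counts with DI and 43.2 to 73.9 around 57 counts with vehicle. Mean levels were 0.757 ± 0.165 CPM (SD, n = 2) with DI and 1.64 ± 0.651 CPM (SD, n = 2) with vehicle. The log2 fold change of Trim30b was -1.10 (SE 0.42), and this was the copy that did not pass the test.

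**Figure D1:**
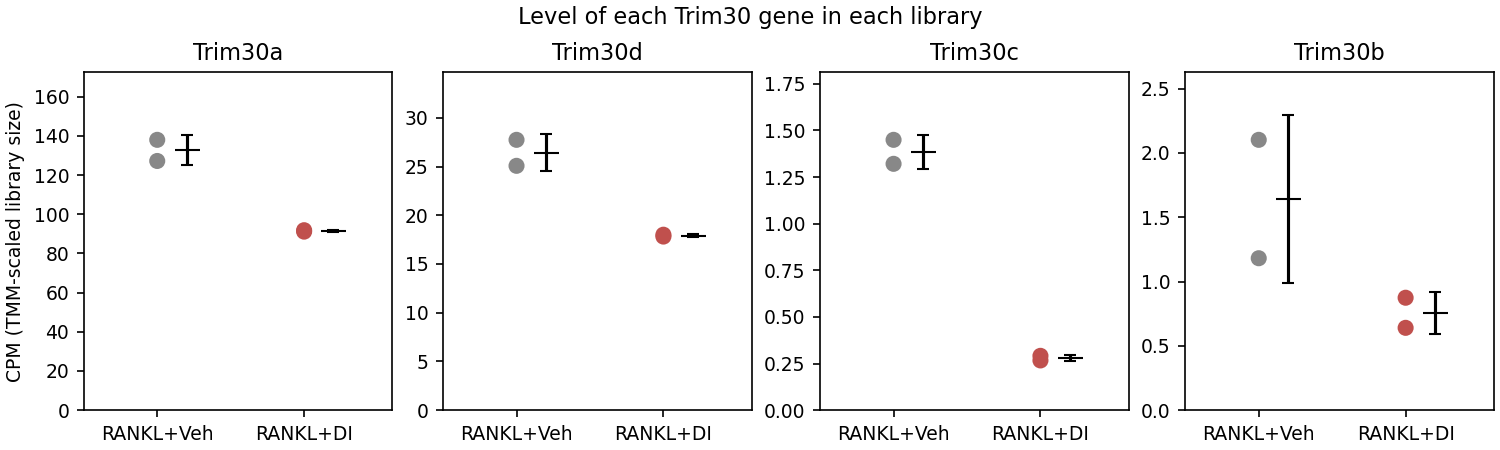
Level of each Trim30 gene in CPM (y axis, from 0, a separate scale for each gene) in the 2 RANKL+Veh libraries (grey points) and the 2 RANKL+DI libraries (red points), with the mean and SD beside them. All 4 genes are lower in both DI libraries, from 69.0% of the vehicle level for Trim30a to 20.5% for Trim30c, and the vehicle libraries of Trim30b lie far apart.

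Per kilobase of the deposited gene length, the order of levels was Trim30a, Trim30d, Trim30c and Trim30b in all 4 libraries. Trim30a had 17.4 and 17.6 CPM per kb in RANKL+DI and 24.3 and 26.4 CPM per kb in RANKL+Veh. Trim30d had 3.45 and 3.42 CPM per kb with DI and 4.81 and 5.32 CPM per kb with vehicle. These levels of Trim30a and Trim30d are set apart by several times their spread. Trim30c had 0.189 and 0.173 CPM per kb with DI against 0.940 and 0.857 CPM per kb with vehicle, and Trim30b had 0.0860 and 0.0630 against 0.116 and 0.207 CPM per kb. The order of the last 2 genes depends on the gene length used. With the longest coding transcript in M21 as the length, Trim30b was above Trim30c in the first DI library, at 0.204 against 0.170 CPM per kb, and the order held in 3 of the 4 libraries.

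The composition of the Trim30 counts was compared next, since it does not depend on the scaling between libraries. Trim30a made up between 81.6% and 83.1% of the counts of the 4 genes in all libraries, and Trim30d between 16.1% and 16.4%. For every 1000 counts of Trim30a there were 198 and 194 counts of Trim30d in RANKL+DI and 197 and 201 in RANKL+Veh. The ratio of these 2 copies thus did not separate the groups, and the log2 fold change of Trim30d lay 0.02 below that of Trim30a. Trim30c, in contrast, made up 0.264% (95% Wilson interval 0.113% to 0.617%) and 0.241% (0.103% to 0.563%) of the counts with DI. With vehicle it made up 0.936% (0.644% to 1.36%) and 0.781% (0.516% to 1.18%). For every 1000 counts of Trim30a there were 3.20 and 2.90 counts of Trim30c with DI and 11.4 and 9.57 with vehicle. The log2 fold change of Trim30c lay 1.75 below that of Trim30a and 1.73 below that of Trim30d, which is a description only, since the genes were chosen on these values and Trim30c passed the filter through the vehicle libraries alone. The share of Trim30b was 0.792% and 0.579% with DI and 0.763% and 1.24% with vehicle, so that the groups overlapped, and its log2 fold change lay 0.57 below that of Trim30a.

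**Figure D2:**
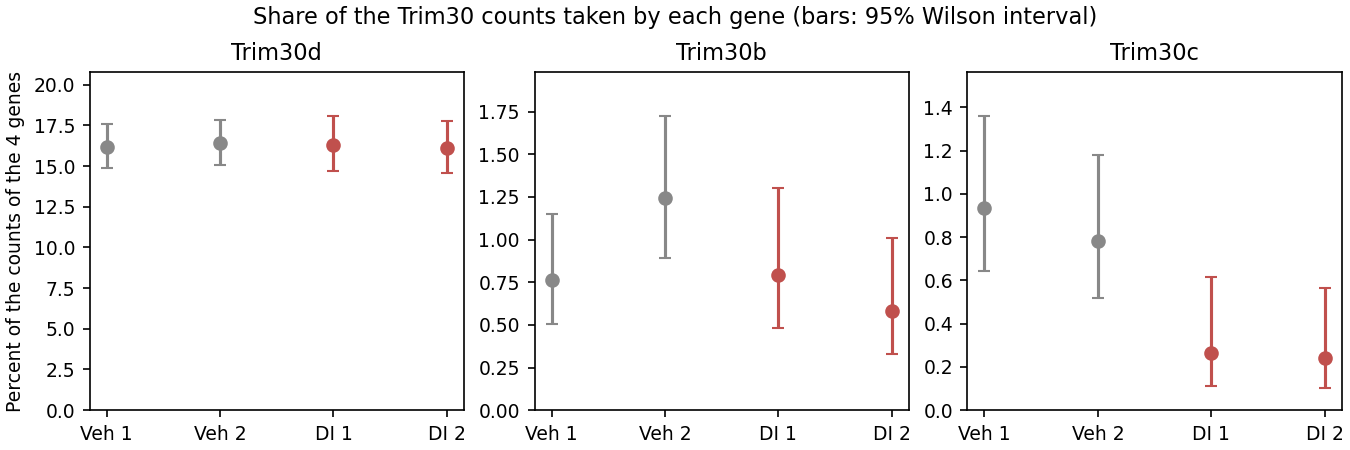
Share of the counts of the 4 Trim30 genes (percent, y axis from 0) that fell on Trim30d, Trim30b and Trim30c in each library, grey for RANKL+Veh and red for RANKL+DI, with bars for the 95% Wilson interval. Trim30d keeps a share of about 16.1% to 16.4% in every library, the groups overlap for Trim30b, and Trim30c has a smaller share in both DI libraries.

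Because reads from near-identical stretches may be exchanged between copies, the 4 genes were also added up and fitted as 1 feature. The sums were 1893 and 2073 counts in RANKL+DI and 2885 and 2817 counts in RANKL+Veh, or 110.3 and 110.6 CPM against 155 and 169 CPM. The mean was 110.4 ± 0.191 CPM (SD, n = 2) with DI and 162 ± 10.1 CPM (SD, n = 2) with vehicle. The log2 fold change of the sum was -0.55 (SE 0.055), which leaves 68.2% of the vehicle level and is close to the value of Trim30a, its largest part.

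The promoters were compared because Trim30a is known as an interferon-inducible gene, and interferon-stimulated gene factor 3 and the interferon regulatory factors bind elements built on the core GAAANNGAA. The RefSeq promoter table on GRCm38.p6 gives windows from 250 bases before to 50 bases after a start site, with 2 start sites for Trim30a and 1 for each other copy. The 115 bases shown here, on the minus strand and read 5′ to 3′ towards the gene, are the stretch of each window that aligns around this core in Trim30a. Capitals mark the 9 bases of the core, which stands in the reverse direction, or the bases that face it. The stretches are chr7:104465194-104465308 for Trim30a (first start site), chr7:104507855-104507969 for Trim30d and chr7:104400880-104400994 for Trim30c:

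Trim30a: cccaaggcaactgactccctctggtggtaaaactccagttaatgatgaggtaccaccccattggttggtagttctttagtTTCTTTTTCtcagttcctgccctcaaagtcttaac
Trim30d: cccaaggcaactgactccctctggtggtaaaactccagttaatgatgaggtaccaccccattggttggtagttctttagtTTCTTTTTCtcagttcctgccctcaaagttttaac
Trim30c: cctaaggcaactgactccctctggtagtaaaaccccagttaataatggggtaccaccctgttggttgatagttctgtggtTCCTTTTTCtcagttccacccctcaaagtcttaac

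Counted from the start site, the core lies at -35 to -27 in Trim30a and at -40 to -32 in Trim30d. The window of the second Trim30a start site holds a separate match at 4 to 12. That window was identical to the first Trim30a window at 91.5% of 260 aligned bases. In Trim30c the facing bases lie at -136 to -128 and carry the change A8G, counted from the 5′ end of the core on the strand on which it reads GAAANNGAA, so the letters of the core are not in that window. Positions in Trim30c are counted from a start site at 104400778, whereas the RefSeq gene reaches 104400852, so they depend on the start site used. The window of Trim30b holds no match either, and only 56 of its bases could be aligned to the first Trim30a window (73.2% identity). RefSeq has Trim30b only up to 104358646, inside the deposited model, which reaches 104369884. The bases before the 5′ end of the deposited model were not searched. The Trim30a and Trim30d windows were identical at 93.9% of 294 aligned bases, and the Trim30c window was identical to that of Trim30a at 89.2% of 176. On both strands, 8.56% of 32851 promoter windows of the same length hold GAAANNGAA. A match is a description of letters and was not tested as a binding site.

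Other motifs were searched on both strands in the same windows, and none of the matches overlapped. The STAT site TTCNNNGAA, present in 8.30% of all windows, was found in the Trim30c window alone, at -62 to -54 from the start site at 104400778. The AP-1 site TGANTCA, present in 7.81% of windows, was found in Trim30a at 44 to 50 and in Trim30d at 39 to 45. The PU.1 core GAGGAA (28.3% of windows) and the core of the antioxidant response element TGACNNNGC (12.4%), to which NRF2 binds, were found in the Trim30b window alone. They lie at -170 to -165 and -100 to -92 from the RefSeq start site, inside the deposited model of Trim30b. The NF-κB consensus, present in 4.51% of windows, was found in none of the windows of the 4 genes.

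**Figure D3:**
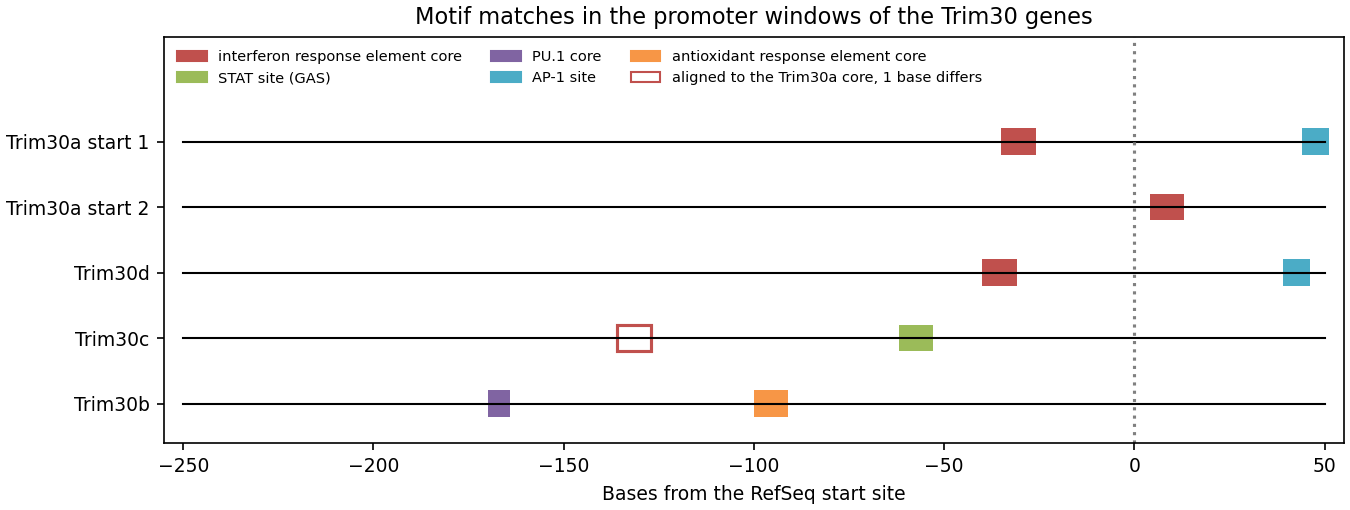
Motif matches (coloured boxes) along the promoter windows of the Trim30 genes, by position in bases from the RefSeq start site (x axis, start site at the dotted line). The interferon response element core is in both Trim30a windows and in that of Trim30d, and the open box marks the facing bases of Trim30c that differ by 1 base. The window of Trim30b, at a RefSeq start site inside the deposited gene model, has neither.

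A list of 11 other Trim genes on chromosome 7, called neighbours here, was examined to see how far along the chromosome lower levels reached. Not all of them lie next to the cluster. The midpoints of Trim3, Trim68, Trim21 and Trim66 lie at 1154, -1783, -1903.5 and 5013 kb from the Trim30a start site. Of the 11 neighbours, 8 were tested and 1 passed the test, against 14.8% of all tested genes. This was Trim34a, another gene with a RING domain, which held 323 and 372 counts in RANKL+DI and 470 and 425 in RANKL+Veh. Its log2 fold change was -0.39 (SE 0.083, adjusted p = 0.0296 by edgeR). The deposited model of Trim34a runs from 104244457 to 104340693, across Trim5, Trim12a, Trim34b and Trim12c, whereas M21 ends it at 104262234, so its count is uncertain. The call was lost under several alternatives, among them leaving out the first DI library or either vehicle library, which left 0 called neighbours.

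The other tested neighbours did not pass the test. Trim12a, a relative of Trim5, had 209 and 328 counts in the DI libraries and 400 and 378 in the vehicle libraries, giving a log2 fold change of -0.57 (SE 0.17, adjusted p = 0.0828 by edgeR). Trim12c had a log2 fold change of -0.21 (SE 0.063, adjusted p = 0.0794 by edgeR), and that of Trim5, the restriction factor gene, was -0.28 (SE 0.14). Trim6 had a positive value of 0.49 (SE 0.23). Trim21, the cytosolic antibody receptor gene, had -0.14 (SE 0.076), Trim68 -0.07 (SE 0.18) and Trim3 0.05 (SE 0.077). The remaining 3 neighbours were not tested, with 3, 3, 6 and 2 counts for Trim66, 1 count in all for Trim34b and 0 counts for the pseudogene Trim30e-ps1. The median log2 fold change of the 8 tested neighbours, among them the distant Trim3, Trim21 and Trim68, was -0.18. Among the 9 neighbours in the promoter table, the interferon response element core was present in the windows of Trim5, Trim12a, Trim12c, Trim21, Trim34a and Trim34b, and not in those of Trim6, Trim66 and Trim68.

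Within 1 Mb on either side of the cluster the table lists 128 other genes, of which 116 had no count. Of the 9 tested, 1 passed the test, Trim34a again, against 14.8% of all tested genes, and it was lost in the same alternatives. The median log2 fold change of these 9 genes was -0.06.

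**Figure D4:**
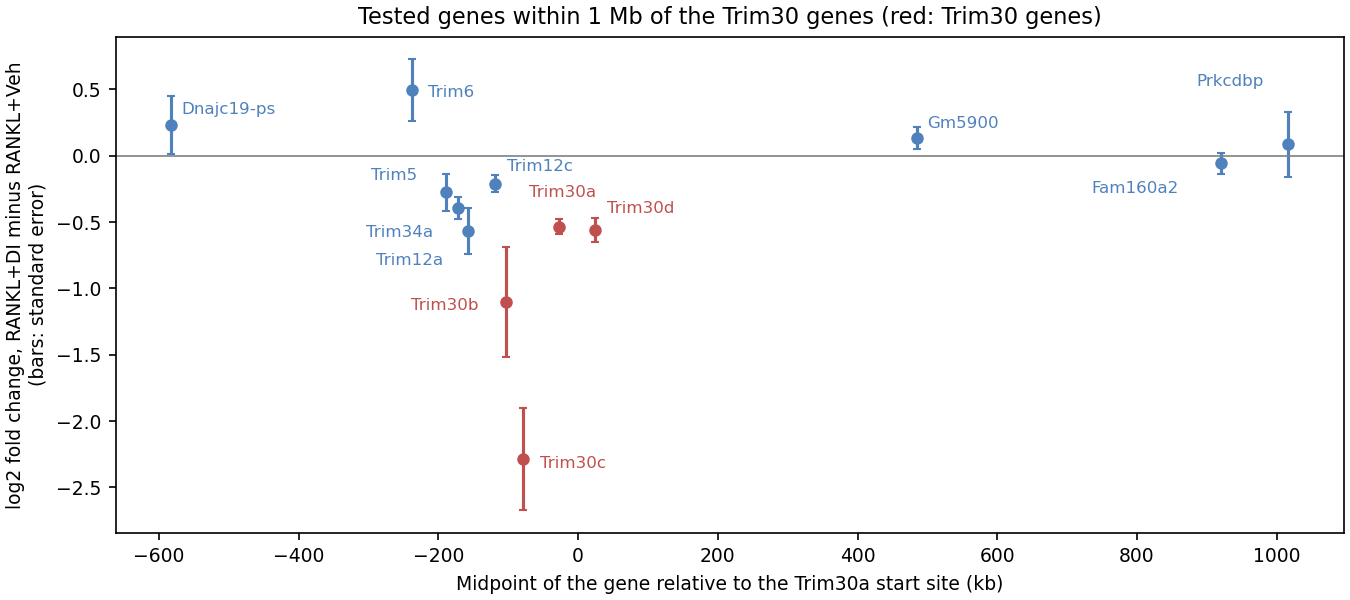
log2 fold change of RANKL+DI against RANKL+Veh (y axis, bars for the SE) for the tested genes within 1 Mb of the cluster, by the distance of the gene's midpoint from the Trim30a start site in kb (x axis). The 4 Trim30 genes (red) lie between -2.29 and -0.54, Trim5, Trim34a, Trim12a and Trim12c between -0.57 and -0.21, Trim6 at 0.49 and the 4 genes further out between -0.06 and 0.23.

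Across the TRIM family outside the 4 genes, 37 of 64 listed genes were tested and 5 passed the test, against 14.8% of all tested genes. The 3 lower genes were Trim59 with a log2 fold change of -0.54 (SE 0.067), Trim34a, and Trim28, the co-repressor of zinc finger proteins, with -0.35 (SE 0.048). The 2 higher genes were Trim16 with 0.72 (SE 0.13), and Trim26 with 0.49 (SE 0.084). Without the first vehicle library 3 genes passed, and with scaling by library size only 10. The median of the 37 genes was -0.02, and 21 of them were below 0. Trim30c and Trim30b had the lowest values among all tested TRIM genes, while Trim30d and Trim30a lay near Trim12a and Trim59. This order is a description only, since the Trim30 genes were chosen on these values. Trim30c also passed the filter through the vehicle libraries alone, and the value of Trim30b had an SE of 0.42.

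**Figure D5:**
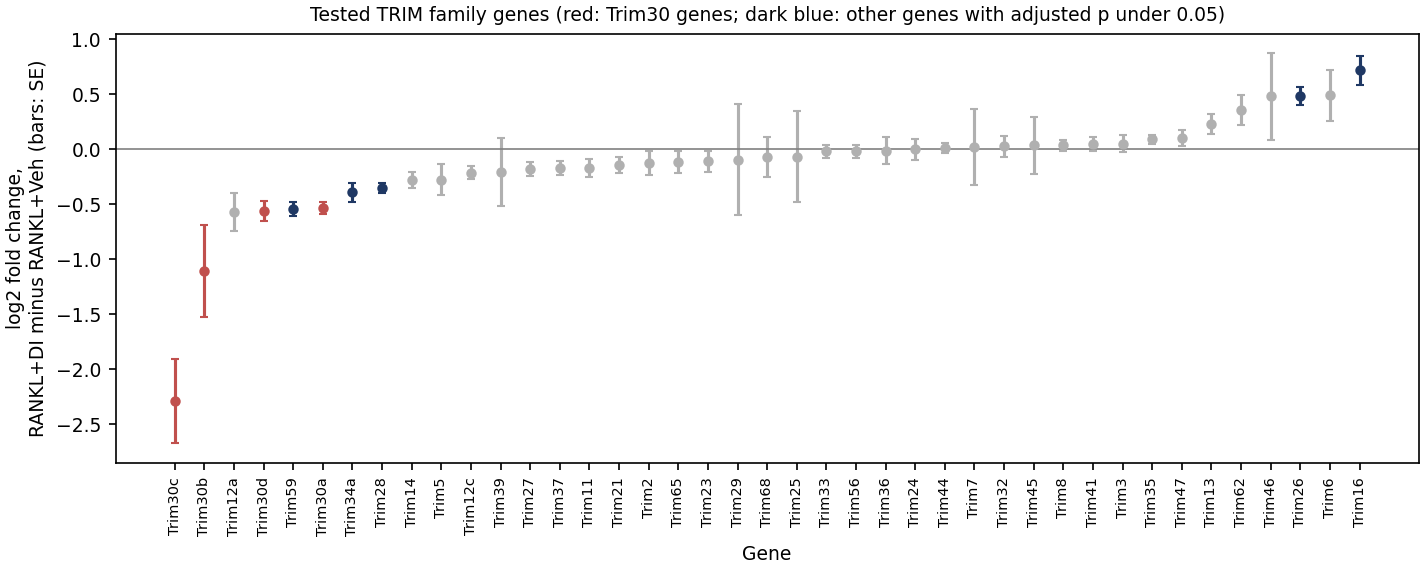
log2 fold change of RANKL+DI against RANKL+Veh (y axis, bars for the SE) for the 4 Trim30 genes (red) and the 37 other tested TRIM genes, in increasing order along the x axis. The other TRIM genes past an adjusted p of 0.05 (dark blue) are Trim59, Trim34a, Trim28, Trim26 and Trim16, and the rest (light grey) centre on a median of -0.02.

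The genes of the pathways on which the Trim30a protein is known to act were listed to describe their RNA beside it. Of 26 genes, 25 were tested and 5 passed the test, against 14.8% of all tested genes. As the list was chosen with earlier results of these data known, this count is a description only. Tab2 and Tab3, whose products TRIM30a is known to remove, did not pass, with log2 fold changes of 0.22 (SE 0.13) and 0.09 (SE 0.11). The inflammasome sensor gene Nlrp3 had 0.05 (SE 0.12), and the STING gene, listed as Tmem173, had 0.07 (SE 0.074). None of these 4 differences passed the test, and RNA levels do not report protein loss.

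Of the 5 that passed, 4 were lower in RANKL+DI. Gsdmd, the gene of the pore-forming protein of pyroptosis, had a log2 fold change of -0.48 (SE 0.043, adjusted p = 0.00224 by edgeR). Nfkbia, which encodes the NF-κB inhibitor IκBα and is itself a target of NF-κB, had -0.49 (SE 0.044). Tlr2, a receptor for bacterial lipoproteins, had -0.44 (SE 0.045), and Tnfrsf11a, the receptor of RANKL, had -0.35 (SE 0.050). Ikbkg, which encodes the regulatory subunit of the IκB kinase, was higher by 0.45 (SE 0.081). The median of the 25 tested genes was -0.03. Il1b was not tested, with 5 counts in the first vehicle library and 0 in the others.

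Genes of interferon signalling, which is known to induce Trim30a, were described last. Of 15 genes, 13 were tested and 6 passed the test, 5 of them lower in RANKL+DI, against 7.7% of all tested genes in that direction. The list was chosen with earlier results of these data known, so these counts are a description only. Irf7, the interferon-inducible transcription factor gene, held 216 and 278 counts in RANKL+DI and 605 and 498 in RANKL+Veh, with a log2 fold change of -1.18 (SE 0.11, adjusted p = 0.00248 by edgeR). Usp18, an interferon-inducible inhibitor of the receptor's signalling, had 153 and 121 counts in the DI libraries and 322 and 346 in the vehicle libraries, giving a log2 fold change of -1.31 (SE 0.18, adjusted p = 0.00776 by edgeR). Stat2 and Irf9, whose products act together in interferon-stimulated transcription, were also lower, with log2 fold changes of -0.61 (SE 0.078) and -0.46 (SE 0.069). The values of Stat2 and Irf9 lie on either side of those of Trim30a and Trim30d, while those of Irf7 and Usp18 lie further below 0. This is a description only, since the Trim30 genes were chosen on their values, and a link was not tested.

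Irf8, a factor of macrophage identity, was the gene of this list that was higher, by 0.45 (SE 0.045). The receptor genes Ifnar1 and Ifnar2 had values of -0.0050 (SE 0.040) and -0.08 (SE 0.048), the kinase gene Jak1 had 0.13 (SE 0.036), and the feedback inhibitor gene Socs1 had -0.01 (SE 0.32), and none of these passed the test. Irf1 had -0.24 (SE 0.073, adjusted p = 0.0866 by edgeR). The median of the 13 tested genes was -0.15. The interferon genes Ifnb1 and Ifna4 had 0 counts in every library, which allows up to 3 counts each.

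The genes whose profiles were most like each Trim30 gene were found by the distance between log2 CPM values centred on their mean over the 4 libraries, among 12589 other genes. For Trim30a they were Ckap2l at a distance of 0.0186, Shmt2 at 0.0236, Cstf2 at 0.0293, Clspn at 0.0310 and then Trim30d at 0.0349. For Trim30d the nearest was Trim30a, followed by Clspn at 0.0397, Slfn5 at 0.0457, Hdac3 at 0.0458 and Ifih1 at 0.0495. The genes nearest to Trim30c were further away, with Gm12543 at 0.142, Nek7 at 0.160, Jdp2 at 0.173, Fsbp at 0.215 and Ifit3 at 0.264. For Trim30b they were Gm29394 at 0.126, Stbd1 at 0.127, Gm43679 at 0.169, Hrh2 at 0.184 and Grap2 at 0.187. With 4 libraries many genes can share a profile, and the larger distances of Trim30c and Trim30b go with their low counts.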

How the data were processed

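mRNA of RANKL-treated BMMs was sequenced in 2 libraries with DI and 2 with vehicle, grouped by their labels. Libraries were made with an mRNA-seq kit and sequenced with a paired-end protocol. The aligner, the counting program, its strand setting, the read length and the annotation release are not given in the sources used here. The deposited counts are raw reads per gene. For each gene a whole-base length was recovered from the deposited FPKM of the library with its most counts. This length returned the FPKM of all libraries, the source library included, to within a relative deviation of 0.000668. It was used for levels per kb. A second deposited table with the authors' pathway names was not used. The number of columns of other samples was 0.

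The members and the gene lists were chosen with earlier results of these data known. The counts were filtered by edgeR 4.0.16 (R 4.3.3) at its default minimum count of 10, scaled by TMM and tested by its quasi-likelihood F test. The design held the condition alone, and p-values were adjusted over 12590 genes after Benjamini and Hochberg. The SE was the log2 fold change divided by the root of F. The residual degrees of freedom were 2. An exact permutation test of 2 against 2 libraries cannot go below p = 0.333, so none was used for single values. The 2 libraries of a group differed by more than sampling noise (chi-square per degree of freedom 7.98 with DI and 8.14 with vehicle). Named genes were the 4 members, their neighbours, the genes of each list that passed the test or that the members are known for, and the 5 nearest profiles. Some genes of the lists are not reported here. Sequences came from GENCODE M21 (GRCm38) and the RefSeq promoter table (GRCm38.p6), aligned with Biopython 1.88. As alternatives, scaling used library size only, upper quartile factors or the size factors of DESeq2 1.42.0. The filter was dropped or raised to 10 counts in each library, and the test replaced by the Wald test of DESeq2 or by voom in limma 3.58.1. Further fits had a replicate block, a prior count of 2, limma on log2(FPKM + 0.01) and log2(FPKM + 1), or 1 library fewer. The 2 gene lengths from M21 were added after seeing the data. The steps were tested on simulated data. Intervals cover counting error only.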

Additional observations from a re-analysis of the deposited data

How the results depend on the processing

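Under 15 alternatives the log2 fold change of Trim30a lay between -0.64 and -0.47 and that of Trim30b between -1.47 and -0.12. Trim30c ranged from -2.39 to -0.72 under 14, and Trim30d from -0.66 to -0.48 under 15. No alternative turned a direction, and the values nearest to 0 of Trim30b and Trim30c came from log2(FPKM + 1), which shrinks low genes by construction. Trim30c could not be tested with at least 10 counts in every library, because its DI libraries hold 5. Leaving out each library in turn gave values of -2.35 to -2.22 for Trim30c, none of which passed the test, and -0.48 for Trim30d without the second vehicle library, where it no longer passed. The 4 values of Trim30d were between -0.63 and -0.48. A group left with 1 library is assumed to vary like the other.

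The number of genes called was 1087 to 1394 with each library left out, lowest without the second vehicle library and 1120 without the first. Scaling by library size only gave 2480 calls, of which 1932 (77.9%) were lower against 51.9% with TMM, and moved the median log2 fold change of all genes to -0.10, so that Trim30 changes under that setting stand relative to this shift. It also gave 10 calls in the TRIM family, 3 among the chromosome 7 neighbours and 3 within 1 Mb, and the lists without a filter gave 2 and 2 calls for the latter pair. With each library left out, the TRIM family had 3 to 4 calls (3 without the first vehicle library), and the neighbours and the genes within 1 Mb each had 0 to 1. The DESeq2 Wald test gave 0 calls among the neighbours and 0 within 1 Mb, where edgeR has 3 genes in each at an unadjusted p under 0.05.

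With the replicate number as a block, 1389 genes were called, and the neighbours and the genes within 1 Mb had 0 calls each. Over all tested genes, libraries of the same number did not deviate together (correlation -0.0302). With 2 libraries in each group this cannot tell whether they share a culture or an animal. The block changed no call of the 4 Trim30 genes or of their sum. By the longest coding transcript in M21, added after seeing the data, the order of levels held in 3 libraries, and by the union of M21 exons in 4. The causes of the lost calls were not tested. Trim30b and Trim30c rest on 5 to 35 counts in each library.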

Other observations

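Trim25, the gene of the ubiquitin ligase that activates the RNA sensor RIG-I, was chosen after its values were seen. It held 5176 and 2858 counts in RANKL+DI and 2873 and 5352 counts in RANKL+Veh. The first DI library and the second vehicle library thus stood together above the other 2, at 302 and 321 CPM against 152 and 154 CPM, and the log2 fold change of -0.07 had an SE of 0.42. Trim39 showed the opposite order, with 154 and 262 counts in RANKL+DI and 313 and 160 counts in RANKL+Veh. The 4 Trim30 genes could not show such a split, since in each of them both DI libraries were lower than both vehicle libraries.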
